A study of Homo sapiens with 13 samples.

Results

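The MEF2 and PU1 mixed arrays are artificial enhancers in which binding motifs named MEF2 and PU1 are combined in one short DNA array, with no other motif. They were chosen by name, as every construct whose listed motif order holds exactly these 2 motifs, in any order, copy number and flanking context, and no measured value enters that rule. They made up 21 of 542 constructs in the library with 5 bp between motifs, 18 of 442 in the library with 10 bp between motifs, and 19 of 530 in the integrated library. The 21 constructs are 7 motif orders in each of 3 flanking contexts. The orders were MEF2_PU1 and PU1_MEF2 (2 copies), MEF2_PU1_MEF2 and PU1_MEF2_PU1 (3 copies), MEF2_PU1_MEF2_MEF2 and MEF2_PU1_MEF2_PU1 (4 copies), and MEF2_PU1_MEF2_PU1_MEF2 (5 copies). PU1_MEF2_PU1 was not analysed at 10 bp, which left 6 orders there.

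PU.1, encoded by SPI1, is an ETS-family transcription factor of myeloid and B cells that binds purine-rich GGAA sites and can act at nucleosomal DNA. The MEF2 proteins are MADS-box factors that bind A/T-rich sites, best known from muscle and also needed by mouse B cells to proliferate after stimulation of their receptor. A STARR-seq construct is transcribed into its own reporter mRNA, so the ratio of mRNA to DNA of a construct measures its enhancer activity.

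The assays were run in MEC1, an established B-cell line from chronic lymphocytic leukaemia. The 10 bp library had 2 mRNA libraries and 1 plasmid DNA library. The 5 bp library had 2 mRNA libraries and 1 plasmid DNA library. Both were read as episomal plasmids, with mRNA from duplicate transfections taken 24 h after delivery. In the integrated assay the 5 bp library was put into one genomic landing pad carrying CMV-driven GFP, by Cre-mediated cassette exchange, GFP-negative cells were sorted and expanded, and 3 extractions gave 3 mRNA and 3 genomic DNA libraries, with 1 plasmid DNA library of the input. All groups were MEC1 cells, and the labels name no drug or genetic change other than the landing pad. The labels do not say whether the integrated cells came from separate transfections, so p-values measure only the spread between these libraries.

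Episomal libraries held 3850658 to 4563359 reads, of which 16.6% to 18.5% carried a barcode with no construct name. After a minimum of 5 plasmid reads per barcode the mixed arrays kept 4949 of 236860 barcodes at 5 bp and 4198 of 210844 at 10 bp, with a median of 181 (8 to 747) and 213 (57 to 633) barcodes per array. The integrated table listed 261 of 16189 barcodes, a median of 8 (1 to 46) per array, so its values rest on far fewer independent molecules. Each episomal barcode in the deposited tables had at least 1 read in every library, which sets a floor under weak constructs. At 5 bp, 1.09% of the mixed arrays' barcodes stood at 1 read in both mRNA libraries, against 4.63% for arrays of MEF2 alone and 7.12% for arrays of PU1 alone.

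Each construct is identified by random 12-base barcodes. The base sequences of the motifs, spacers and flanks are not used here, so arrays are written by their motif order. One barcode per order is shown, because these strings tie a single reporter to its array in both the episomal and the integrated assay. They are the barcodes with the most genomic DNA among those given the same array in both tables, and capitals are not used because no base is singled out. The MEF2_PU1 barcode had 3 plasmid reads in the 5 bp table, below the minimum of 5, so it did not enter the episomal values.
MEF2_PU1, context 2: cggaatccggag
PU1_MEF2, context 2: catatgatttca
MEF2_PU1_MEF2, context 3: gattctacgtcc
PU1_MEF2_PU1, context 2: ttctgtttgcag
MEF2_PU1_MEF2_MEF2, context 3: catgtccacacc
MEF2_PU1_MEF2_PU1, context 3: ttcaccacgtgt
MEF2_PU1_MEF2_PU1_MEF2, context 2: gcgtcccaaatc
A single reporter gave an uneven readout. The PU1_MEF2 barcode catatgatttca had 47.8, 83.2 and 46.9 depth-normalised reads (RPM) of integrated mRNA, against 29.6, 69.1 and 75.3 RPM of genomic DNA. The barcode gcgtcccaaatc was listed at 0 RPM of mRNA in all 3 integrated replicates despite 138, 77.7 and 34.0 RPM of genomic DNA, while the same barcode on the episomal plasmid had 32 and 35 mRNA reads against 50 plasmid reads. Of the 261 integrated barcodes, 200 were also named in the 5 bp table and 198 of those carried the same array there.

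With 5 bp spacing the mixed arrays were, on average, more active than arrays of either motif alone. Activity is given as log2 of a construct's share of the mRNA reads over its share of the plasmid reads, so 0 is the average molecule of the library. The 21 mixed arrays averaged 0.03 ± 0.01 (SD, n = 2 mRNA libraries), against -1.59 ± 0.02 for 15 MEF2 arrays, -1.74 ± 0.05 for 14 PU1 arrays and -1.30 ± 0.002 for 3 constructs named rd, which hold no motif. Among the MEF2 arrays MEF2_MEF2 stood above that average, at -0.93, -0.20 and -0.15 in contexts 1 to 3. The median was 0.09 over the mixed arrays and -0.77 over all 542 constructs. All 21 lay above the rd construct of their own context in both mRNA libraries, as did 65.3% of the 539 constructs other than rd.

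The strongest mixed array at 5 bp was MEF2_PU1_MEF2 in context 2, with 7373 and 6811 mRNA reads against 5126 plasmid reads over 450 barcodes. Its activity was 0.61 and 0.69 in the 2 mRNA libraries. PU1_MEF2 followed in all 3 contexts, at 0.43 and 0.47 in context 1, 0.59 and 0.56 in context 2, and 0.42 and 0.56 in context 3. MEF2_PU1_MEF2_PU1 in context 1 reached 0.45 and 0.44. Both mRNA libraries lay above 0 for each of these 5 arrays. The lowest 3 were PU1_MEF2_PU1 in context 2 (-0.65 and -0.69), MEF2_PU1_MEF2_MEF2 in context 1 (-0.32 and -0.56) and PU1_MEF2_PU1 in context 1 (-0.45 and -0.40). These low members were still above rd of their contexts, which stood at -1.12 ± 0.08 in context 2 and -1.25 ± 0.03 in context 1.

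Adding copies separated the mixed arrays from the arrays of a single motif. From 2 to 5 copies the mixed arrays averaged 0.16, 0.02, -0.02 and -0.13. Over the same copy numbers MEF2 arrays averaged -0.43, -1.57, -2.11 and -2.77, and PU1 arrays averaged -1.56, -1.98, -2.25 and -2.29. The last PU1 value rests on 2 contexts. The 5-copy arrays of a single motif held only 5 to 10 barcodes each, with 12 to 29 reads per mRNA library, near the floor. Single copies stood at -1.07 for MEF2 and -0.79 for PU1. The mixed arrays thus stayed near 0 over this range, while arrays of either motif alone were lower at 3 to 5 copies than at 2. The 4-copy and 5-copy PU1 means differed by less than the spread between mRNA libraries.

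A departure was defined for each mixed array as its activity minus the mean of the log2 activities of the MEF2 and PU1 arrays of the same total copies and context, weighted by the copies of each motif. It cancels any scaling of a library. The 5-copy PU1 array of context 3 is not analysed here, so 20 of the 21 arrays had a departure, and arrays of equal copies and context share the same homotypic arrays. All 20 were called above 0 (limma with Benjamini-Hochberg adjustment over 418 mixed arrays, adjusted p from 5.0e-20 to 2.2e-09), where 60.5% of all mixed arrays were called above. The median departure was 1.82, a 3.53-fold higher activity, against 0.36 over mixed arrays of all motif pairs. Departures averaged 1.15 at 2 copies, 1.80 at 3, 2.15 at 4 and 2.44 at 5 copies (6, 6, 6 and 2 arrays). The last of these rests on the thinly covered 5-copy homotypic arrays.

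The range of departures ran between these 2 arrays. In MEF2_PU1_MEF2_PU1 of context 1 it was 2.74 ± 0.04 (SE), with the mixed array at 0.45 and the 4-copy MEF2 and PU1 arrays at -2.28 and -2.31. In MEF2_PU1 of context 3 it was 0.46 ± 0.04, with the mixed array at -0.40 and -0.31, the MEF2_MEF2 array at -0.23 and -0.07, and the PU1_PU1 array at -1.46 and -1.49. The single plasmid library enters both replicates alike, so these errors leave its counting noise out. With each construct's edgeR standard error, which includes that noise, all 20 departures were still more than 2 standard errors above 0, where 56.9% of mixed arrays were. That error was 0.13 for MEF2_PU1_MEF2_PU1 in context 1 and 0.09 for MEF2_PU1 in context 3. The 4-copy MEF2 and PU1 arrays of context 1 held 14 and 22 barcodes, with 35 to 76 reads per mRNA library.

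A stricter comparison set each mixed array against the more active of its homotypic arrays. Against it 18 of 20 were called above, where 31.8% of mixed arrays were, and 1 was called below, where 58.4% were. The array below was MEF2_PU1 in context 3, which differed by -0.20 from MEF2_MEF2 (limma, adjusted p = 0.0077). MEF2_PU1 in context 2 differed by -0.042 and was not called (adjusted p = 0.74). Both p-values leave out the counting noise of the plasmid library. The other 18 lay above both homotypic arrays in each of the 2 mRNA libraries, as did 34.0% of mixed arrays. The differences ranged from 1.12 to 2.84 against the PU1 array, and from -0.20 to 2.73 against the MEF2 array.

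Ranked by median departure, MEF2 with PU1 came first of the 28 motif pairs at 5 bp. The next pairs were FOXO with MEF2 at 1.37, MEF2 with NFKB at 1.23 and FOXO with NFKB at 1.23. IRF with MEF2 stood at 1.08 and FOXO with PU1 at 0.76. The lowest pair was CTCF with NFKB, at -1.87. The rank is a description of these constructs, since the pairs differ in which orders were built.

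The order of the same 2 motifs changed activity at 5 bp. MEF2_PU1 had activities of 0.02, -0.25 and -0.36 in contexts 1 to 3, against 0.45, 0.58 and 0.49 for PU1_MEF2. The array starting with MEF2 was lower in each context, with differences of -0.43, -0.83 and -0.85 ± 0.06 (SE for each), so that PU1_MEF2 was 1.35, 1.77 and 1.80 times as active. All 3 differences were called (limma, adjusted p = 2.2e-10, 3.9e-23 and 1.1e-23), where 82.1% of 84 such order pairs over all motif pairs were called in some direction and 48.8% in this one. The fit pooled the spread of the 84 pairs completely, so these p-values rest on the common spread rather than on that of each array. They also leave out the counting noise of the single plasmid library. The median absolute difference over the 84 pairs was 0.29 and the 90th percentile 0.62, so that contexts 2 and 3 lay beyond it.

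Longer arrays also differed by their make-up at 5 bp, given here as values with no test. MEF2_PU1_MEF2 exceeded PU1_MEF2_PU1, of the same length, by 0.57 ± 0.03, 1.32 ± 0.08 and 0.25 ± 0.03 in contexts 1 to 3 (SD, n = 2). MEF2_PU1_MEF2_PU1 exceeded MEF2_PU1_MEF2_MEF2, from which it differs only in its last motif, by 0.88 ± 0.16, 0.43 ± 0.20 and 0.45 ± 0.01. Each of these 6 differences was larger than its spread between mRNA libraries, which leaves out the counting noise of the single plasmid library. After integration MEF2_PU1_MEF2 minus PU1_MEF2_PU1 was -0.33 ± 0.20, 1.02 ± 1.18 and -1.23 ± 0.98 in contexts 1 to 3 (SD, n = 3). MEF2_PU1_MEF2_PU1 minus MEF2_PU1_MEF2_MEF2 was -0.18 ± 1.57 and 0.78 ± 1.35 there in contexts 2 and 3. The fifth motif went with a lower value at 5 bp: MEF2_PU1_MEF2_PU1_MEF2 differed from MEF2_PU1_MEF2_PU1 by -0.35 ± 0.27, -0.31 ± 0.06 and -0.56 ± 0.09. The 5-copy array of context 1 rests on 8 barcodes and 90 plasmid reads, and its activity was 0.29 and -0.11. At 10 bp the fifth motif did not go with a lower value in each context: the difference was -0.04 ± 0.06, 0.05 ± 0.13 and 0.75 ± 0.18. After integration it was 0.30 ± 1.48 in context 2 (SD, n = 3).

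With 10 bp spacing the mixed arrays were, on average, not above the constructs without a motif. The 18 arrays averaged -0.84 ± 0.02 (SD, n = 2), against -1.13 ± 0.01 for 15 MEF2 arrays, -1.75 ± 0.02 for 14 PU1 arrays and -0.62 ± 0.08 for rd. Their median was -0.80, against -0.67 over all 442 constructs. Of the 18, 5 lay above rd of their context in both mRNA libraries, where 47.6% of constructs did, and 10 lay below it, where 49.4% did.

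Of the 5 highest arrays at 10 bp, 4 were in context 3. PU1_MEF2 in context 3 had 5557 and 5541 mRNA reads against 5508 plasmid reads, an activity of 0.15 and 0.16. MEF2_PU1_MEF2 in context 3 stood at 0.03 and 0.05, MEF2_PU1 at -0.35 and -0.31, and the 5-copy array at -0.44 and -0.31. PU1_MEF2 in context 2 completed the top 5 at -0.42 and -0.34. The lowest arrays were MEF2_PU1_MEF2_PU1 in context 2 (-1.84 and -1.71), and the 5-copy array in context 2 (-1.70 and -1.76) and context 1 (-1.39 and -1.37). By context the mixed arrays averaged -0.98, -1.17 and -0.39 in contexts 1 to 3 at 10 bp, while at 5 bp they averaged 0.04, -0.02 and 0.05.

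Departures at 10 bp were mostly above 0 but smaller. Of 17 arrays, 15 were called above, where 68.9% of 318 mixed arrays were. The median was 0.69, against 0.53 over all mixed arrays, and the pair ranked 11 of 28. The one array called below, where 23.6% were, was MEF2_PU1 in context 2, at -0.22 ± 0.03 (SE; limma, adjusted p = 0.0012), and MEF2_PU1_MEF2_PU1 in context 2 was at 0.02 ± 0.03 (adjusted p = 0.66). The largest departure was 1.46 ± 0.05 in MEF2_PU1_MEF2_MEF2 of context 1. Against the more active homotypic array 10 were called above and 4 below, where 39.3% and 52.2% of mixed arrays were. The 4 below were MEF2_PU1 in contexts 1 and 2, at -0.20 and -1.07, and PU1_MEF2 in contexts 1 and 2, at -0.30 and -0.16. That fit pooled the spread over arrays completely and leaves out the plasmid library's counting noise, so calls on the smaller differences are less sure. In both mRNA libraries 11 of 17 lay above both homotypic arrays, where 41.5% of mixed arrays did. With standard errors that include the plasmid library, 15 departures were more than 2 standard errors above 0 and 1 below, where 64.8% and 21.4% of mixed arrays were. All 17 had positive differences from the PU1 array, of 0.14 to 2.01.

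Order differences at 10 bp varied with the context. MEF2_PU1 stood at -0.72, -1.29 and -0.33 in contexts 1 to 3, against -0.82, -0.38 and 0.15 for PU1_MEF2. The array starting with MEF2 was higher in context 1 by 0.11 ± 0.02 (SE; limma, adjusted p = 0.019) and lower in contexts 2 and 3, with differences of -0.91 ± 0.02 and -0.48 ± 0.02 (adjusted p = 0.0027 each). Over all order pairs 36.9% were called higher and 36.9% lower. These errors leave out the counting noise of the single plasmid library. With that noise, and that of the homotypic arrays, the departures of the context 1 arrays had standard errors of 0.09 each. The direction of the small difference in context 1 is therefore not settled. For the last motif of the 4-copy arrays the direction turned round. MEF2_PU1_MEF2_PU1 differed from MEF2_PU1_MEF2_MEF2 by -0.61 ± 0.12, -1.0 ± 0.11 and -0.45 ± 0.08 at 10 bp (SD, n = 2, no test). At 5 bp these differences were positive.

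Compared directly, the departures were lower at 10 bp than at 5 bp in 16 of 17 arrays. All 16 were called (limma over 318 mixed arrays, adjusted p up to 0.039), where 42.1% of mixed arrays were called lower and 40.6% higher. This test leaves out the counting noise of the plasmid library of each spacing, so the smallest differences are less sure than their calls. For MEF2_PU1_MEF2_MEF2 in context 1, at -0.39, standard errors with that noise were 0.18 at 5 bp and 0.16 at 10 bp. For PU1_MEF2 in context 3, at -0.27, they were 0.09 at both spacings. The median difference, 10 bp minus 5 bp, was -1.07, against -0.01 over all mixed arrays. The largest was in MEF2_PU1_MEF2_PU1 of context 2, whose departure was 0.02 at 10 bp, against 2.15 at 5 bp, a difference of -2.13 ± 0.07 (SE). The 5-copy array followed, at 0.72 against 2.56 in context 1 and 0.55 against 2.32 in context 2. The exception was MEF2_PU1 in context 3, at 0.55 at 10 bp and 0.46 at 5 bp, a difference of 0.09 ± 0.04 that was not called (adjusted p = 0.069). Without the first 5 bp mRNA library 15 arrays were called, and MEF2_PU1_MEF2_MEF2 in context 1 was not, at -0.22. Since the 2 spacings were cloned as separate pools and transfected separately, the effect of spacing and that of the pool cannot be told apart.

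Activities themselves followed the same pattern. Between spacers the activity of the mixed arrays differed by a median of -1.0, with 17 of 18 lower at 10 bp. The same median was 0.28 for the 15 MEF2 arrays, of which 3 were lower, and -0.02 for the 14 PU1 arrays, of which 7 were. Taken relative to rd of the same context, the medians were -1.69, -0.41 and -0.76. On that scale all 18 mixed arrays were lower at 10 bp, as were 11 of 15 MEF2 and 12 of 14 PU1 arrays. The rd constructs themselves averaged -1.30 at 5 bp and -0.62 at 10 bp. With rd scaling, edgeR called 69.2% of 442 constructs lower at 10 bp. Shares of all constructs for the uncalled counts are not given here. Across the 18 arrays, activity at 10 bp and at 5 bp had a Pearson's r of 0.11 and a Spearman's rho of -0.01, while across all 442 constructs both were 0.73. These correlations run over constructs that share libraries and are descriptions only. They also cover unlike ranges, since 5 bp activity ran from -0.67 to 0.65 over the 21 mixed arrays and from -3.45 to 3.37 over all 542 constructs.

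Calls of mRNA against plasmid DNA depended on how libraries were scaled, because they ask whether an array exceeds a library's own centre. In edgeR's quasi-likelihood test with TMM scaling, 16 of 18 arrays were higher at 5 bp and 0 lower, where 40.5% and 49.5% of 442 constructs were. DESeq2 gave the same counts, and at an unadjusted p under 0.05 edgeR also had 0 lower. Scaled on library totals the counts were 6 higher and 7 lower, where 22.6% and 69.9% were, and scaled on rd all 18 were higher and 0 lower, where 65.6% and 26.0% were. In a fit of the 5 bp library alone 20 of 21 arrays were higher and 0 lower, where 42.6% and 45.2% were. At 10 bp 4 arrays were higher and 11 lower under TMM scaling, where 45.7% and 48.6% were. Library totals gave 1 higher and 16 lower there, where 31.2% and 62.4% were, and rd scaling 4 higher and 9 lower, where 45.5% and 45.9% were. For the contrast of 10 bp with 5 bp, 15 arrays were lower under TMM scaling, 14 under library totals and 18 under rd scaling, where 41.2%, 37.1% and 69.2% of constructs were, and no array was higher under any of the 3 scalings, where 36.0%, 41.6% and 14.9% were. DESeq2 also had 15 lower and 0 higher, and at an unadjusted p under 0.05 edgeR with TMM had 0 higher. Shares over all constructs are not given here for DESeq2 or for unadjusted p-values.

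After integration the mixed arrays were again the pair with the highest median departure, on thinner data. Here activity is log2 of the summed mRNA RPM over the mean summed genomic DNA RPM, with 0.5 added to both, for the 18 arrays with at least 3 barcodes. They averaged -0.48 ± 0.02 (SD, n = 3), against -3.75 ± 1.18 for 10 MEF2 arrays, -1.64 ± 0.51 for 11 PU1 arrays and -1.35 for rd. Of the homotypic arrays, 3 of MEF2 and 1 of PU1 were listed at 0 RPM of mRNA in some replicate. The rd constructs ranged from -3.77 to 0.75, so a comparison with them depends on the context. In all, 9 of 18 mixed arrays lay above rd of their context in all 3 replicates, where 35.3% of constructs did, and 4 lay below, where 39.8% did.

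The highest integrated array was PU1_MEF2_PU1 in context 3, at 0.60, 0.25 and 0.68 over 46 barcodes. Its mRNA summed to 1956, 1535 and 2068 RPM, against 1174, 1367 and 1332 RPM of genomic DNA. One barcode, tccaacaaccta, gave 39.9% of that mRNA, and without it the activity was -0.09. The next were the 5-copy array in context 2 (1.10, 0.49 and -0.44, on 3 barcodes), MEF2_PU1_MEF2_MEF2 in context 2 (1.02, 0.51 and -0.75), PU1_MEF2_PU1 in context 1 (0.39, -0.12 and 0.39) and MEF2_PU1_MEF2_PU1 in context 1 (-1.28, 1.40 and 0.27). All 4 of these had replicates on both sides of 0. The lowest were MEF2_PU1_MEF2_MEF2 in context 3 (-0.15, -2.53 and -1.94), PU1_MEF2 in context 2 (-2.09, -1.08 and -1.12) and MEF2_PU1 in context 1 (-1.65, -1.57 and -1.0). Over the 18 arrays the barcode with the most mRNA gave 13.3% to 79.3% of an array's mRNA, with a median of 48.7%.

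All 14 integrated departures were above 0, from 0.45 to 4.35, where 198 of 375 mixed arrays were above 0. Of the 14, 5 were called above (limma over the 375 mixed arrays), where 12.3% were. The called arrays were MEF2_PU1_MEF2 in context 1, at 3.48 ± 0.30 (SE, adjusted p = 0.019), and in context 3, at 2.13 ± 0.28 (adjusted p = 0.027). PU1_MEF2_PU1 was called in context 1, at 2.68 ± 0.31 (adjusted p = 0.024), and in context 3, at 2.69 ± 0.40 (adjusted p = 0.033). The fifth was PU1_MEF2 in context 1, at 4.35 ± 0.71 (adjusted p = 0.039), whose homotypic array MEF2_MEF2 was listed at 0 RPM of mRNA in 2 of 3 replicates, so its size rests partly on the added 0.5. It also rests on 1 of its 7 barcodes, gcccgtttctca, which gave 79.3% of its mRNA and without which its activity was -3.67 and its departure 0.70. The median was 2.41 over 14 arrays, the highest of 28 pairs, against 2.08 for FOXO with RUNX3, the next pair, and 0.19 over all mixed arrays. Leaving out the 4 arrays with a homotypic array at 0 in some replicate, the median was 1.80 and 4 of 10 were called. The share called over all mixed arrays with that exclusion is not given here. With arrays that have a homotypic array at 0 left out of every pair, MEF2 with PU1 again had the highest median, against 1.28 for FOXO with PU1, the next. Every one of the 5 calls was lost when any 1 replicate was left out.

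Single barcodes carried several of these departures. When each mixed array lost its barcode with the most mRNA, and the homotypic arrays kept theirs, 11 of 14 departures were above 0 and the median was 0.97. The 3 below 0 were MEF2_PU1 in context 1, at -0.55, MEF2_PU1 in context 3, at -1.46, and MEF2_PU1_MEF2_PU1 in context 2, at -0.52. These had been 2.96, 0.98 and 2.69 with all barcodes. The called arrays other than PU1_MEF2 in context 1 lay between 1.39 and 3.14 without that barcode. Leaving the barcode with the most mRNA out of every array alike, 11 of the 12 arrays that could be computed were above 0, with a median of 2.02, and MEF2_PU1 in context 3 was at -0.82. Both settings were chosen after seeing the data and have no test. Shares of all mixed arrays above 0 under these settings are not given here.

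Against the more active homotypic array 5 of 14 integrated arrays were called above, where 8.8% of mixed arrays were, and 0 below, where 36.5% were, also at an unadjusted p under 0.05. In every replicate 10 of 14 lay above both homotypic arrays, where 15.2% of mixed arrays did. Of the 10 arrays without a homotypic array at 0, 6 did, and the matching share over all mixed arrays is not given here. For mRNA against genomic DNA (limma), 5 of 18 arrays were called lower and 0 higher, where 55.9% and 13.5% of 513 constructs were. At an unadjusted p under 0.05 limma had 1 higher. Centred on rd the same test called 7 higher and 0 lower, where 28.7% and 18.3% were, and 0 were lower at an unadjusted p under 0.05. The order of the 2 motifs gave 0 calls in 3 contexts after integration (1 at an unadjusted p under 0.05), where 19.0% of 84 order pairs were called. MEF2_PU1 minus PU1_MEF2 was -1.39 ± 0.40, 1.01 ± 0.42 and -0.09 ± 0.43 (SE) in contexts 1 to 3 (limma, adjusted p = 0.089, 0.15 and 0.89).

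Whether a barcode gave any integrated mRNA counts each barcode once, so its share does not depend on a few high barcodes. The share was 33.0%, 43.3% and 28.7% in the 3 replicates for the 261 barcodes of the mixed arrays, a mean of 35.0% ± 7.49 (SD, n = 3). It was 10.3% ± 2.67 for MEF2 arrays, 26.8% ± 3.56 for PU1 arrays, 9.49% ± 3.08 for rd and 19.6% ± 2.66 for all barcodes. The mixed arrays were above each of these in all 3 replicates. Over the 3 replicates together 160 of 261 barcodes had mRNA (61.3%, exact Clopper-Pearson 95% interval 55.1% to 67.2%), against 62 of 262 for MEF2 (18.7% to 29.3%) and 119 of 234 for PU1 (44.3% to 57.4%). The median genomic DNA per barcode was 20.8 RPM for the mixed arrays, 24.1 RPM for MEF2, 23.3 RPM for PU1 and 19.7 RPM for rd. These intervals cover counting error only.

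By copy number the shares of mixed and PU1 arrays ran differently. In the mixed arrays 25.4% ± 7.04, 37.1% ± 6.37 and 46.2% ± 16.8 of barcodes had mRNA at 2, 3 and 4 copies (71, 161 and 26 barcodes). In PU1 arrays 40.3% ± 1.39 had mRNA at 1 copy, and 22.2% ± 6.74, 19.6% ± 3.90 and 24.2% ± 5.25 at 2, 3 and 4 copies. These rest on 72, 60, 90 and 11 barcodes. In MEF2 arrays the share stayed between 9.09% and 11.4% from 1 to 4 copies, on 119, 44, 86 and 11 barcodes. At 2 copies the mixed and the PU1 arrays differed by less than the spread between replicates, and a single PU1 copy had a higher mean share than the mixed arrays of 2 or 3 copies. At 3 and at 4 copies the mixed arrays were above the PU1 arrays in each replicate. PU1_MEF2_PU1, with 104 of the 261 barcodes, had mRNA in 40.1% ± 9.87 and MEF2_PU1_MEF2 in 31.6%.

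Within the group, integrated and episomal 5 bp activity did not rank the arrays alike. Over 18 mixed arrays Pearson's r was 0.00 and Spearman's rho was -0.13, against 0.39 and 0.42 over 513 constructs, as descriptions over constructs that share libraries. The mixed arrays cover a much narrower range of 5 bp activity than all constructs, and their integrated values rest on few barcodes. The size of the 2 sets of correlations is therefore not directly comparable. PU1_MEF2_PU1 in context 3 stood first after integration and at 0.07 and 0.11 on the plasmid, and PU1_MEF2 in context 2 stood near the bottom after integration and second on the plasmid.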

How the data were processed

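Barcode tables of 2 episomal and 1 integrated STARR-seq library in MEC1 were used. For the episomal libraries the deposited values are raw counts of reads for each barcode, next to the construct it was assigned to. For integrated mRNA and genomic DNA the authors gave RPM per barcode, which is scaled to depth. The sources used here do not name the aligner, the rule of assignment or the total behind the RPM. Barcode length was 12 bases, and 9 columns of values matched no sample and were not used.

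Reads of named barcodes with at least 5 plasmid reads were summed per construct (at least 5 barcodes; 3 after integration). Activities, departures and order differences were tested with limma 3.58.1 in R 4.3.3 over the mRNA libraries, and mRNA against plasmid counts with edgeR 4.0.16 (quasi-likelihood, TMM, one dispersion over both spacers for 442 constructs). P-values were Benjamini-Hochberg adjusted over all constructs, mixed arrays or order pairs at 0.05. The scripts were tested on simulated data. DESeq2 1.42.0, other scalings, minimums, expectations and left-out libraries were alternatives. An mRNA number shared by both spacers did not pair libraries (r of deviations 0.05 over 442 constructs; -0.03 to 0.05 after integration). Single values are given for the 5 highest and 3 lowest arrays per library, all arrays of 1 copy of each motif, and order pairs or exceptions past the threshold. Each array belongs by its name alone, but the choice to describe this motif pair, and its comparisons, were made with earlier results of these data known.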

Additional observations from a re-analysis of the deposited data

Results flagged for a closer look

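The departure from the homotypic arrays differed between the 10 bp and the 5 bp library by its own test (limma, Benjamini-Hochberg over 318 mixed arrays) in 16 of 17 arrays, each lower at 10 bp, where 42.1% of mixed arrays were called lower. That test leaves out the counting noise of the plasmid libraries, which matters most for the smallest differences. As 10 bp minus 5 bp, the difference was -0.68 and -0.91 for MEF2_PU1 in contexts 1 and 2. For PU1_MEF2 it was -1.22, -0.83 and -0.27 in contexts 1 to 3. For MEF2_PU1_MEF2 it was -1.40, -1.58 and -1.07, and for MEF2_PU1_MEF2_MEF2 it was -0.39, -0.72 and -0.78. For MEF2_PU1_MEF2_PU1 it was -1.71, -2.13 and -1.71, and for MEF2_PU1_MEF2_PU1_MEF2 -1.83 and -1.78 in contexts 1 and 2. Groups of 2 or 3 libraries were too small for a test of single outlying libraries.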

How the results depend on the processing

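Settings were changed one at a time. Counts of calls in this section are given without the share over all arrays under the same setting. They show only how the calls of the group moved, not whether they moved more than those of other arrays. Every 5 bp median departure stayed positive: it was 1.97 against the PU1 array alone, 2.0 with at least 20 plasmid reads per barcode, 1.67 with at least 20 barcodes per array, 1.66 as the mean over barcodes, and 1.76 and 1.87 without one mRNA library. Arrays called below numbered 1 against the more active or the MEF2 array, where MEF2_PU1 reversed to -0.042 in context 2 and -0.20 in context 3. edgeR on library totals gave 6 higher and 7 lower at 5 bp and 1 higher at 10 bp. The 10 bp median was 0.54 with a linear mean, 0.36 against the more active array, 0.55 against MEF2, 1.26 against PU1, 0.72 with at least 1 plasmid read, 0.66 over barcodes and 0.65 to 0.68 without one replicate. Calls below at 10 bp were 4 against the more active or the MEF2 array, with MEF2_PU1 at -0.20 in context 1 and PU1_MEF2 at -0.30 and -0.16 in contexts 1 and 2. They were 0 against PU1, with MEF2_PU1 at 0.63 in context 2, and 2 with at least 20 plasmid reads, with MEF2_PU1_MEF2_PU1 at -0.26 in context 2.

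The median difference of 10 bp minus 5 bp was -1.18 with a linear mean, -1.49 against the more active and against the MEF2 array, -0.75 against PU1, -1.16 with at least 20 reads and -0.91 with at least 20 barcodes. Calls lower fell to 10 with at least 20 reads, which also leaves fewer arrays, and 1 array, MEF2_PU1 in context 3, was called higher with a linear mean (0.20) and against the more active or the MEF2 array (0.41). PU1_MEF2 in context 3 reversed to 0.047 under the last 2, and against PU1 MEF2_PU1 in context 3 was -0.22 and MEF2_PU1_MEF2_MEF2 in context 1 was 0.14. For that last array the call between spacers was also lost without the first 5 bp mRNA library, at -0.22.

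The integrated median departure was 1.71 with a linear mean, 1.18 against the more active array, 3.42 against MEF2, 1.21 against PU1, 1.80 without arrays that have a homotypic array at 0, 0.97 with the barcode of most mRNA left out of each mixed array, 2.02 with it left out of every array, and 1.93 to 2.62 without one replicate. Calls above were 9 with a linear mean or an added 5 RPM, 8 with no barcode minimum and 0 to 0 without one replicate. Higher activity was called in 1 array with an added 0.1 RPM or with at least 10 or 20 barcodes and in 7 centred on rd; lower activity was called in 3 with at least 10 barcodes, 1 with at least 20, 0 centred on rd and 2 to 3 without one replicate. The share of barcodes with mRNA in all 3 replicates was 13.0%, against 6.78% over all barcodes, 7.69% for PU1, 1.53% for MEF2 and 3.25% for rd. For a single PU1 copy it was 15.3%. The causes were not tested.

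With the replicate number as a block, 3 arrays were called lower after integration, the median departure there was 2.42 with 5 calls, and the difference between spacers kept a median of -1.07 with 16 calls. The block gave edgeR 14 higher at 5 bp, 4 higher and 10 lower at 10 bp, and 15 lower between spacers. Leaving the same mRNA number out of both spacers could not be fitted in edgeR, so 1 library was left out at a time. That setting, the standard error with plasmid noise, the exclusion of arrays with a homotypic array at 0 and that of single barcodes were chosen after seeing the data. Of the remaining results for single arrays, 828 kept their side of the threshold, 21 gained a call and 25 lost one. Direction was not always kept where neither setting gave a call. After integration, MEF2_PU1 in context 3 was at -0.18 against the PU1 array. PU1_MEF2 was at -0.09 and -0.08 there in contexts 2 and 3. At 10 bp, MEF2_PU1_MEF2_PU1 in context 2 was at -0.11 against the MEF2 array. The integrated values rest on a median of 8 barcodes per array, and weak episomal arrays on a floor of 1 read.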
